A study of Mus musculus with 4 samples.

Results

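The netrins, the netrin-Gs and the repulsive guidance molecules (RGMs) are related or functionally linked families of guidance ligands, and 8 of their genes were examined here for DNA methylation: Ntn1, Ntn3, Ntn4, Ntn5, Ntng1, Ntng2, Rgma and Rgmb. The genes were chosen by name, and every row that the deposited tables of gene features and of CpG island features list for them was taken. That gave 16 of 55200 gene features (a promoter and a body for each of the 8 genes, of 28777 genes in all) and 80 of 80045 CpG island features, which belong to 7 of the genes, because none is listed for Ntn5. The 17 windows of 100 kb that overlap the genes, of 27268 windows, were added as context.

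Secreted netrins are laminin-related proteins that bind the receptors DCC, neogenin and the UNC5 family, and netrin-1, made from Ntn1, is the classic cue that attracts or repels growing axons. The netrin-Gs are held on the cell surface by a lipid anchor and bind the NGL proteins rather than DCC. The RGMs are also lipid-anchored, bind neogenin, and act as co-receptors of bone morphogenetic proteins. In mammals methylation is added mainly to the C of CG pairs (CpGs). CpG islands, the CpG-rich stretches found at many promoters, are usually unmethylated, and gene bodies are usually methylated.

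The assay was RRBS (reduced representation bisulfite sequencing). MspI cuts DNA at CCGG and bisulfite converts unmethylated cytosines, so the calls come mostly from CpG-rich DNA. All 4 libraries were made from the mouse embryonic stem cell line CGR8, grown in serum with LIF and stably transfected with a ppy-cagg-ires-puro plasmid. In the 2 control libraries the plasmid was empty, and in the 2 netrin-1 libraries it encoded a netrin-1 transgene. The labels give neither the species of the transgene, nor clones or pools, nor separate cultures, so p-values measure the spread between these libraries, which may be technical. The libraries held 31452170 (control 1), 41964981 (control 2), 36269454 (netrin-1 1) and 53293458 (netrin-1 2) calls in gene features, of which 29728, 39461, 32916 and 51342 lay in the 8 genes. Of 8 stem cell genes, 7 had promoter calls. The promoters of 5 (Pou5f1, Sox2, Klf4, Tfcp2l1 and Zfp42) were below 10% methylated in every library. That of Dppa3 was at 17.5% to 30.1%, and that of Esrrb at 9.43% to 51.7%. The Sox2, Klf4 and Tfcp2l1 promoters overlap CpG islands, which are usually unmethylated, so low levels there cannot check the cell type. The question the design poses is whether exogenous netrin-1 goes with a different methylation profile, and here it is asked of the genes of netrin-1 and its relatives.

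The promoters show how differently RRBS sees these genes. RefSeq (GRCm38.p6) promoter windows, 250 bases before to 50 bases after a start site, were found for 6 of the 8 genes. The 4 below lie inside the promoter that the deposited table measured, and are shown because their CpG content spans the range from CpG-poor Ntn5 to CpG-rich Ntn4. CpGs are in capitals.
Ntn3: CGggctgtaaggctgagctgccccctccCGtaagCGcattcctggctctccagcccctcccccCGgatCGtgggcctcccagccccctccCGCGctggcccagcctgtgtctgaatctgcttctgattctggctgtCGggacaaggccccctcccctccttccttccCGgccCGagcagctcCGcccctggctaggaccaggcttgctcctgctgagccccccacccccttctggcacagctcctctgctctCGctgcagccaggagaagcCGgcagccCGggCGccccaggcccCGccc
Ntn4: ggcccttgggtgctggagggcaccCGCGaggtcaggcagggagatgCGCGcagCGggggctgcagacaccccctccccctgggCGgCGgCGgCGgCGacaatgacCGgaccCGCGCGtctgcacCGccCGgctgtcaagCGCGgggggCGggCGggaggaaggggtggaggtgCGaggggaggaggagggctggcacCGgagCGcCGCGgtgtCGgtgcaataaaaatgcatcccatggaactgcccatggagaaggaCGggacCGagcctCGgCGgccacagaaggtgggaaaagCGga
Ntn5: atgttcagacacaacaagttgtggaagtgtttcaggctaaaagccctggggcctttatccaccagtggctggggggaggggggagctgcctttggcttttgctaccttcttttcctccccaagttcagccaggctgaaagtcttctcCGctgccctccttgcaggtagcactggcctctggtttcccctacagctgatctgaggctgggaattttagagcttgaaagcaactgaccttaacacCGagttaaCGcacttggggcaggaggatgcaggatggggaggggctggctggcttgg
Rgmb: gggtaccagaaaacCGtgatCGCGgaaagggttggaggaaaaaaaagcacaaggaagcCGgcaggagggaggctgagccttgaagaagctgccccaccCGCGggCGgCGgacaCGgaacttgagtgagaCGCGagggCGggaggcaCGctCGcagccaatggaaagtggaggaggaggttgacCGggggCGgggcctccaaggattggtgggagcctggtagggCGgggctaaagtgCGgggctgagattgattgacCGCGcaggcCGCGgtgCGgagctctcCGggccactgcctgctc
The Ntn3 window is chr17:24209338-24209637 on the minus strand and holds 16 CG and 4 CCGG. The Ntn4 window is chr10:93640799-93641098 on the plus strand and holds 31 CG and 3 CCGG. The Ntn5 window is chr7:45683772-45684071 on the plus strand and holds 3 CG and 0 CCGG. The Rgmb window is chr17:15826517-15826816 on the minus strand and holds 24 CG and 3 CCGG. Both motifs read the same on either strand, and each CCGG contains one of the CGs. Among 32851 windows of the same length, 94.6% held at least 1 CG (median 7) and 52.8% held at least 1 CCGG (median 1). Of the 4 windows, the one without the MspI site belongs to Ntn5, the promoter with the fewest calls. Windows of Ntng2 (chr2:29248050-29248349) and Rgmb (chr17:15831197-15831496), outside the listed promoters, also held 0 CCGG. The windows are only part of the measured promoters, and a link between sites and calls was not tested.

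Promoters, taken by the authors as the 500 bases to either side of the start site, were nearly unmethylated at 6 of the 8 genes, in both groups. Levels are given throughout in the order control 1, control 2, netrin-1 1 and netrin-1 2. Among the secreted netrins, the Ntn3 promoter was methylated at 1.72%, 2.40%, 1.32% and 0.71%, and the Ntn4 promoter at 0.98%, 0.69%, 0.09% and 0.66%. In both the netrin-1 libraries were the lower, by at most 1.04 points between group means, and 20.8% of all promoters lay lower without overlap. The promoter of Ntng1 was at 0.60%, 0.76%, 0.44% and 1.32%, and that of Ntng2, the other netrin-G gene, at 1.20%, 1.45%, 1.61% and 0.59%. Rgma was at 0.35%, 1.64%, 1.10% and 1.52%, and Rgmb at 1.01%, 0.58%, 0.22% and 1.12%. In these 4 promoters the groups overlapped.

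Ntn1 and Ntn5 were thinly covered at their listed promoters. The Ntn1 promoter had 34, 24, 12 and 30 calls, with levels of 5.88%, 0%, 0% and 20.0%. The 0 of 24 calls in control 2 allows a level of up to 12.5%, and the 0 of 12 in netrin-1 1 up to 25%, counting error only. The island chr11:68399535-68400614, which overlaps part of the Ntn1 promoter, was far better covered, with 1209 to 1820 calls. It was nearly unmethylated, at 1.04%, 1.87%, 2.81% and 0.82%. The Ntn5 promoter had 10, 11, 4 and 23 calls, at 50%, 90.9%, 100% and 65.2%, and overlapped between groups. Ntn5, a less studied secreted netrin, was the one member without a listed CpG island. It was also the one whose promoter was at 50% or more in every library, though from only 2, 2, 1 and 2 covered positions. None of the 8 promoters carried enough information to be tested (a minimum of 10 calls in every library and of 25 for calls × level × (1 − level), averaged over libraries). With no information minimum, 15 of the 16 gene features were tested and 0 were called. The median difference between group means over the 8 promoters was 0.04 points (netrin-1 minus control), beside -0.134 points over all 16527 promoters with calls in every library. Its sign was not stable, since it was -0.12 points over promoters with at least 10 calls, and -0.33 and -0.41 points without control 1 and netrin-1 2. With each library centred, which moves every promoter by the same amount, it was 0.78 points.

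Gene bodies ranged from nearly unmethylated to a level of 28.4%. As measured, 7 of 8 had a lower mean level in the netrin-1 libraries, beside 69.8% of all 19231 bodies with calls in every library. The member median difference turned from -2.04 to 0.09 points once each library was centred on its own mean over all bodies. Centring moves every body by the same amount, so the median over all bodies moves equally. Of the 8 member bodies 7 were tested and none was called at an adjusted p below 0.05 (quasi-binomial logistic test, Benjamini-Hochberg over all 17209 gene features tested). Of all tested gene features, 0.00581% were called. At an unadjusted p below 0.05, 3 of the 7 were lower in the netrin-1 libraries (Ntn1, Ntng1 and Rgmb), beside 11.9% of all tested features, and 0 were higher, beside 0.889%.

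Ntn1, the gene of the ligand that was overexpressed, had a body level of 26.3%, 27.3%, 24.4% and 20.1%. The controls lay above both netrin-1 libraries, and netrin-1 2 was the lowest. The group means were 26.8% ± 0.749 and 22.3% ± 3.03 (SD, n = 2 each), from 7884 to 13526 calls per library. The odds ratio was 0.761 (95% interval 0.619 to 0.935), with an adjusted p of 0.262. Without netrin-1 1 the adjusted p was 0.0148 and the Ntn1 body passed the threshold, whereas without netrin-1 2 it was 0.793. Over all 18838 gene bodies with at least 10 calls in every library, those closest to Ntn1 in their 4 levels were Jph1, Sncaip and Tiam2, at Euclidean distances of 1.22, 1.34 and 1.42 points. The Ntn1 body spans the weakly methylated island chr11:68384929-68386726, which held 1042, 1385, 1831 and 2277 calls. Of the body's 7884, 10546, 9082 and 13526 calls, that is a larger share in both netrin-1 libraries. The Ntn1 body level thus also depends on where calls fell, and the size of that part was not tested.

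Ntng1, whose product binds NGL-1 at synapses, had the widest gap in body level, in points, among the 8 genes. Its levels were 19.6%, 22.7%, 14.9% and 13.7%, again with no overlap. The means were 21.2% ± 2.18 and 14.3% ± 0.884 (SD, n = 2 each), a difference of -6.86 points, and the odds ratio was 0.613 (95% interval 0.455 to 0.825). The adjusted p was 0.202. Rgmb, also known as Dragon, a BMP co-receptor, was far less methylated, at 5.48%, 8.78%, 3.72% and 4.17%. Again the groups did not overlap, with an odds ratio of 0.502 (95% interval 0.271 to 0.931) and an adjusted p of 0.335. Without control 2, the highest library, the log odds ratio of the Rgmb body went from -0.69 to -0.33. With each library centred, the log odds ratios were -0.17 for Ntn1, -0.39 for Ntng1 and -0.58 for Rgmb, at adjusted p of 0.584, 0.406 and 0.579.

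The other bodies differed by 2.13 points or less. Rgma, which encodes a ligand that repels retinal axons in the chick, was at 16.0%, 14.8%, 14.6% and 11.9%, just without overlap (adjusted p = 0.605). Ntng2 was at 13.6%, 11.3%, 11.8% and 10.9% (adjusted p = 0.781). Ntn4, which encodes a netrin of basement membranes, was at 25.5%, 28.4%, 27.1% and 22.9% (adjusted p = 0.687). In Ntng2 and Ntn4 the groups overlapped. Ntn5 was the one body higher in both netrin-1 libraries than in both controls, at 26.2%, 24.4%, 28.4% and 26.4% (adjusted p = 0.831, odds ratio 1.11, 95% interval 0.777 to 1.58). The Ntn3 body, a short gene whose body is close to its island, was at 1.37%, 1.63%, 0.86% and 1.31%, too low in level to be tested.

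Among the 7 tested bodies, 4 lay lower in the netrin-1 libraries without overlap, beside 35.8% of all tested gene features, and 1 lay higher, beside 7.23%. The median difference over the 8 bodies was -2.04 points, close to the -1.73 points over all 19231 bodies. The mean over the 8 bodies was 17.1% ± 0.459 in the controls and 14.8% ± 1.27 with netrin-1 (SD, n = 2 each), beside 29.0% and 26.9% over all bodies. Without netrin-1 1 the member median was -3.21 points, and without netrin-1 2 it was -0.74 points.

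**Figure D1:**
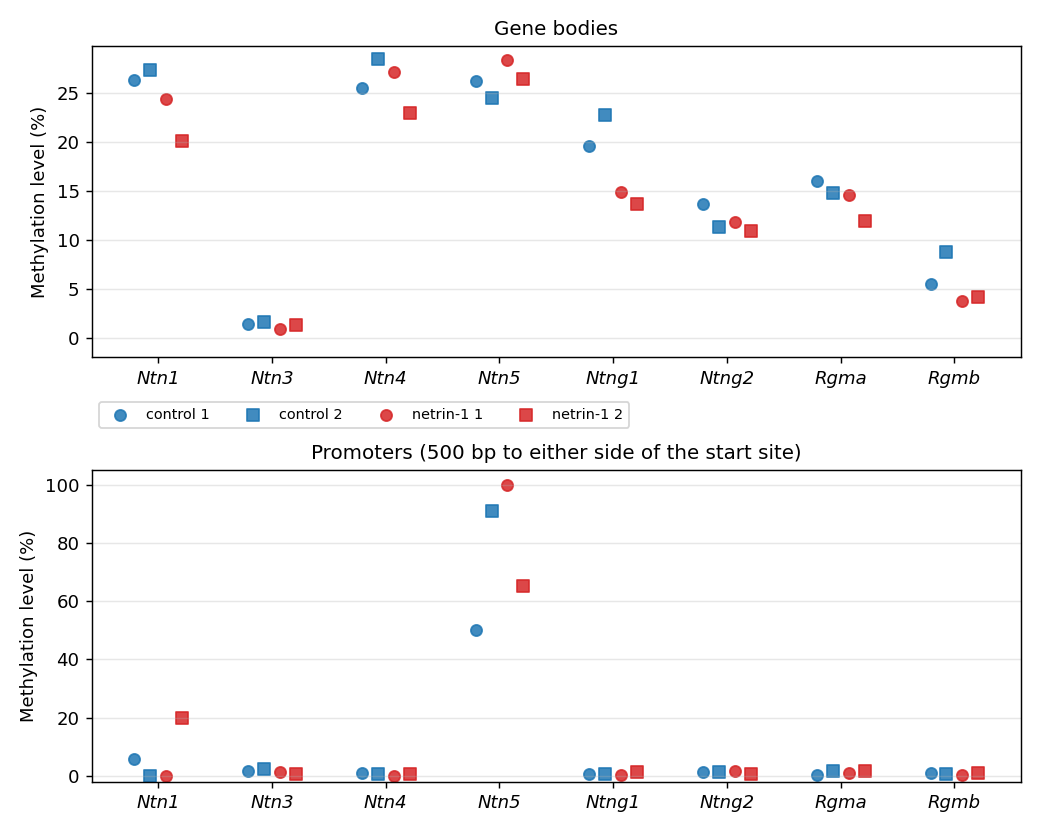
Methylation level (%, vertical axis) of the body (upper panel) and promoter (lower panel) of each of the 8 genes, with 1 point per library, blue for control and red for netrin-1. Bodies of Ntn1, Ntn3, Ntng1, Rgma and Rgmb sit lower in both netrin-1 libraries, with none called and Ntn3 not tested, and the promoters sit near 0% except those of Ntn5 and Ntn1, which rest on 4 to 34 calls.

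CpG islands of these genes were mostly unmethylated. Of the 80 island features (islands, shores of 2000 bases beside them, and shelves of 2000 bases beyond), 54 had calls in all libraries, 1 in some, and 25 in none. At least 10 calls in every library were found in 49, and 16 could be tested. Of 13 islands with at least 10 calls in every library, 11 were below 6% in all libraries, with 5.09% the highest level. The exceptions lay inside genes. The Ntng2 island at chr2:29227632-29227910 (mm10) was at 32.5%, 38.8%, 37.3% and 39.4%, without a separation of the groups (adjusted p = 0.936). The small Ntn1 island at chr11:68387051-68387294, with 21 to 62 calls, was at 15.7%, 15.9%, 28.6% and 17.7%, and was not tested.

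None of the 16 tested island features was called, where 0.186% of all 11815 tested island features were. At an unadjusted p below 0.05, 3 were lower in the netrin-1 libraries, beside 10.5% of all, and 0 were higher, beside 1.53%. Without overlap between groups, 5 were lower, beside 32.2%, and 2 higher, beside 9.39%.

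All 3 lower features were shores of Ntng2, whose product binds NGL-2. The shore at chr2:29192639-29194638, at the 3' end of the gene, was at 40.7%, 31.4%, 21.5% and 20.7%. Both netrin-1 libraries lay below the lower control. The levels rest on 7, 11, 5 and 4 covered positions, so the libraries did not all cover the same CpGs. The odds ratio was 0.484 (95% interval 0.289 to 0.811) and the adjusted p 0.225. The shore at chr2:29249509-29251508, beside the island at the listed start site, was at 4.88%, 3.55%, 2.35% and 1.24%, from 1489 to 3072 calls (adjusted p = 0.174, odds ratio 0.384, 95% interval 0.201 to 0.733). It passed the threshold in one alternative, at an adjusted p of 0.0416 with no information minimum. The third shore, chr2:29250527-29252526, overlaps the second and so shares calls with it. Its levels were 3.49%, 2.41%, 1.63% and 1.52% (adjusted p = 0.354). The island at the listed start site itself, chr2:29251509-29253279, is partly covered by the third shore. This island was at 1.07%, 1.34%, 1.24% and 1.24%, with an odds ratio of 1.01 (95% interval 0.478 to 2.15).

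Higher levels without overlap were seen at 2 tested features. The Rgma shelf at chr7:73413382-73415381 was at 37.4%, 44.8%, 56.9% and 52.9% (adjusted p = 0.493, odds ratio 1.66, 95% interval 0.919 to 3.01). The Ntng2 shore at chr2:29227911-29229910 was at 33.3%, 40.9%, 48.8% and 43.8% (adjusted p = 0.696). In Ntn4 the shelf at chr10:93643528-93645527 went the other way, at 56.7%, 50.3%, 49.7% and 43.2% (adjusted p = 0.655).

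The tested Ntn1 features did not separate the groups. The island at chr11:68384929-68386726 was at 4.89%, 1.30%, 2.62% and 5.01% (adjusted p = 0.773), with netrin-1 1 between the controls. The shore at chr11:68382929-68384928 was at 10.8%, 6.32%, 4.63% and 8.09% (adjusted p = 0.859). The overlapping shelf at chr11:68383051-68385050 repeats most of its calls. The Ntn1 shelf at chr11:68395535-68397534, with 15 to 53 calls, was at 20.0%, 41.5%, 4.76% and 2.17%, and only with no information minimum did it enter the test and pass (adjusted p = 0.0441). Its level rests on 2 or 3 covered positions per library.

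Of the tested Rgmb features, the start-site island at chr17:15825475-15826841 was at 0.88%, 0.88%, 0.25% and 0.85% (adjusted p = 0.788). The Rgmb shelf at chr17:15828842-15830841 was at 3.45%, 3.66%, 2.50% and 3.99% (adjusted p = 0.986). Both stayed near the floor in all 4 libraries. The remaining tested features overlapped between groups. They were the Ntng2 shore chr2:29195064-29197063 at 5.63%, 4.64%, 5.15% and 4.84% (adjusted p = 0.995) and the Rgma shore chr7:73415382-73417381 at 56.1%, 43.9%, 47.5% and 46.5% (adjusted p = 0.933). The Ntn1 shore chr11:68385051-68387050 was at 3.87%, 1.31%, 2.22% and 3.26% (adjusted p = 0.884), and the shelf chr11:68383051-68385050 at 10.6%, 6.09%, 4.50% and 7.80% (adjusted p = 0.858).

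Features with calls in all libraries but too little information to test differed between group means from -27.3 points, in the Ntn1 shelf above, to 27.8 points, in an Ntng2 shelf (chr2:29255280-29257279) with 3 to 12 calls. The wide differences rest on few calls. The Rgma shore chr7:73409532-73411531, with 23 to 39 calls, was at 13.0%, 43.6%, 5.71% and 3.70%. The Ntn1 shore chr11:68210867-68212866, with 18 to 31 calls, was at 67.7%, 77.8%, 52.6% and 46.7%. Both were lower in the netrin-1 libraries without overlap. With 492 to 1087 calls, the Ntn4 shore chr10:93641528-93643527 was at 1.32%, 1.44%, 3.66% and 2.94%, higher in both netrin-1 libraries.

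By class, the member medians of the difference in group means were -0.06 points for islands, -1.16 for shores and -0.82 for shelves. Over all features of each class they were -0.09, -0.44 and -1.21 points. With each library centred on its class mean, the member medians were 0.30 points for islands, -0.01 for shores and 1.12 for shelves. Centring moves every feature of a class by the same amount, so the medians over all features of the class move equally. The change of sign for islands and shelves is therefore no result about the members. The member island median was 0.08 points without control 2, and the member shore median -0.66 points without netrin-1 1.

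**Figure D2:**
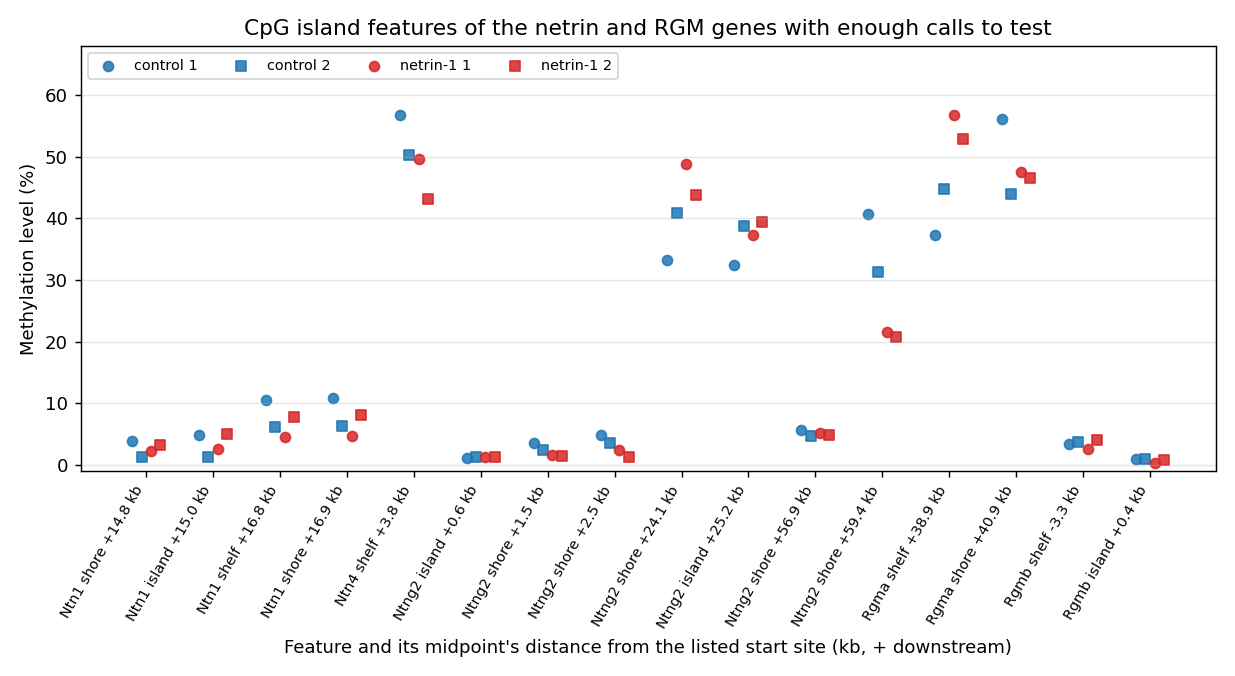
Methylation level (%, vertical axis) of the 16 tested CpG island features, each named with its gene, class and the distance of its midpoint from the listed start site in kb, 1 point per library. The Ntng2 shore at +59.4 kb shows the widest gap, with the netrin-1 libraries at 21.5% and 20.7% against 40.7% and 31.4%. It rests on 5 and 4 covered positions in the netrin-1 libraries and 7 and 11 in the controls.

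The position of the start site bears on how these features read. For Ntn3, Ntn5 and Rgma the deposited start site is the RefSeq 5' end. For Ntn4 the deposited start lies 368 bases from the RefSeq 5' end, for Ntng1 5961 bases and for Ntng2 4906 bases. The listed promoters of Ntng1 and Ntng2 do not reach that 5' end, so their low levels describe the listed starts only. The Ntng2 RefSeq 5' end (29248099) falls in the shelf at chr2:29247509-29249508. That shelf was at 32.5%, 61.1%, 39.1% and 67.6%, from only 18 to 40 calls, and was not tested. For Ntn1 the file's start site (68400823) lies 13997 bases upstream of the RefSeq 5' end (68386826), and the island at chr11:68384929-68386726, which the file calls intragenic, ends 100 bases from that RefSeq start. It was covered by 1042 to 2277 calls, whereas the listed promoter had at most 34. For Rgmb the RefSeq 5' end (15831246) falls in the island at chr17:15830544-15831266, which was at 1.28%, 0.65%, 0.56% and 1.26%. So at both candidate starts of Rgmb the DNA was below 2% methylated in every library. The Rgma start-site island (chr7:73375248-73376344) is listed under a neighbouring gene, A730056A06Rik, and is not among the 80 features.

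The 100 kb windows had higher levels than most promoters and islands, but their calls leave out part of those in the features inside them. The Rgmb window held 258, 693, 209 and 444 calls, against 2168, 2421, 1791 and 2849 in the Rgmb promoter inside it. Window levels are therefore not directly comparable with feature levels. Of the 17, 9 lay lower with netrin-1 without overlap, beside 48% of all 23743 tested windows. One was called, where 2.22% of all tested windows were. The called window lies in Ntng1, at chr3:110000001-110100000, with 35.2%, 37.5%, 16.8% and 24.5%. Both netrin-1 libraries were more than 10 points below the controls (difference -15.6 points, odds ratio 0.465, 95% interval 0.307 to 0.704, adjusted p = 0.0424). The call was lost in 9 of 13 alternatives, among them centring each library (adjusted p = 0.28) and leaving out control 1, control 2 or netrin-1 1 (adjusted p = 0.0859, 0.342 and 0.136). Over the alternatives the adjusted p ran from 0.0148 to 0.527, with the direction kept in all. Its coverage was 15.6, 14.1, 14.1 and 12.3 calls-per-million (CPM) of all calls in windows. The calls fell on 25, 12, 30 and 21 covered positions, so the libraries did not all cover the same CpGs.

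Other windows of Ntng1 varied. The window at chr3:109700001-109800000 was at 51.5%, 55.5%, 31.4% and 44.8% (adjusted p = 0.0573). The next, chr3:109800001-109900000, was at 56.9%, 55.1%, 44.1% and 36.2% (adjusted p = 0.111). Between them and the called window, chr3:109900001-110000000 was at 36.7%, 39.6%, 43.6% and 33.5%, with overlapping groups (adjusted p = 0.971). The last, chr3:110100001-110200000, holds the listed start site. It was at 44.4%, 43.0%, 39.5% and 29.8%, lower with netrin-1 without overlap (adjusted p = 0.318). Each of these Ntng1 windows rests on few calls, 186 to 1425 per library.

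Elsewhere, the Ntn3 window (chr17:24200001-24300000), which holds other genes too, was at 51.0%, 46.6%, 38.7% and 34.7%, just short of the threshold (adjusted p = 0.0507). The middle Ntn1 window (chr11:68300001-68400000) was at 52.1%, 53.0%, 48.2% and 42.1% (adjusted p = 0.0937), while those before and after it differed by less than 1 point between group means. The second Ntn4 window (chr10:93700001-93800000) was at 54.3%, 39.7%, 40.4% and 34.6% (adjusted p = 0.196). The Ntn3 window held 821, 1132, 969 and 1443 calls, fewer than the Ntn3 body inside it, at 1681, 1474, 1749 and 2448. Its level of 34.7% to 51.0% is therefore not that of all calls in the window, the low Ntn3 features included.

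**Figure D3:**
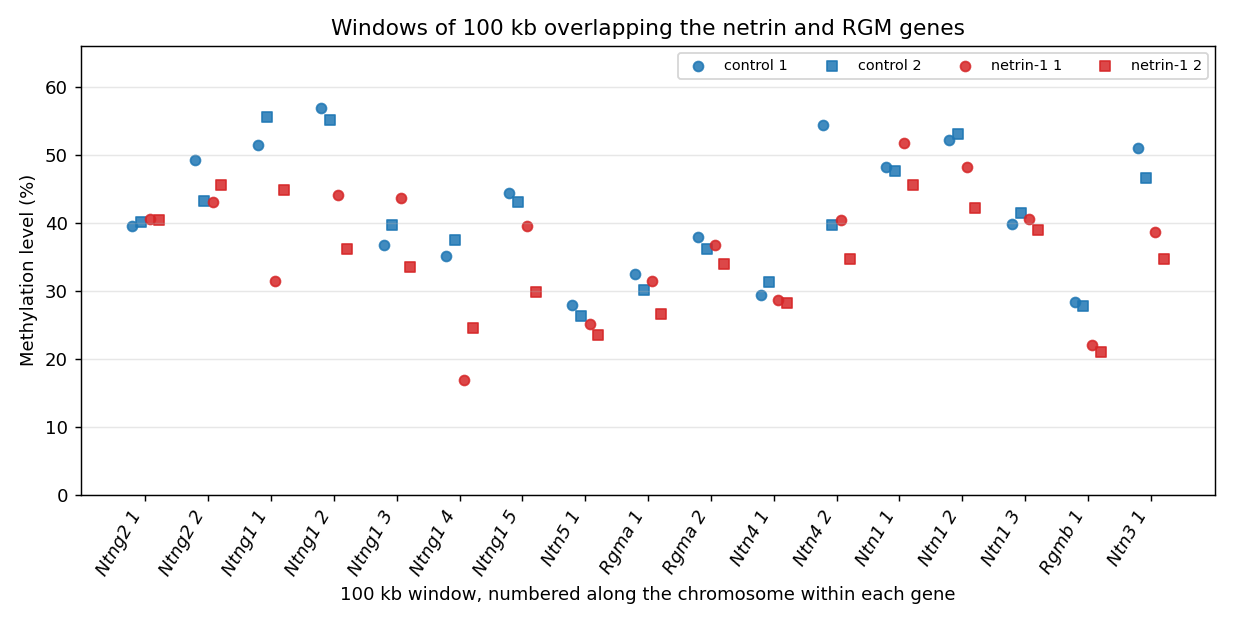
Methylation level (%, vertical axis) of the 17 windows of 100 kb that overlap the genes, numbered along the chromosome within each gene, 1 point per library. The fourth Ntng1 window is the called one, at 16.8% and 24.5% in the netrin-1 libraries against 35.2% and 37.5% in the controls. It rests on 30 and 21 covered positions in the netrin-1 libraries and 25 and 12 in the controls.

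Because the transgene carries netrin-1 sequence, the number of calls over each feature was compared as well. No member was called for coverage (edgeR quasi-likelihood test, Benjamini-Hochberg over each table), 0 of 16 gene features, where 0.386% of all 35781 were called, and 0 of 53 island features, where 0.0304% of all 46121 were. DESeq2 also called 0 members in both tables. The Ntn1 body had 251.2, 250.2, 252.1 and 252.7 CPM after TMM scaling, a fold of 1.01.

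At an unadjusted p below 0.05, 0 of 16 gene features of the members differed in coverage, beside 7.35% of all, and 3 of 53 island features, beside 6.18% of all. All 3 were higher in the netrin-1 libraries, beside 3.04% of all island features, and lie in Ntn1 at its RefSeq start. The island at chr11:68384929-68386726 had 50.5, 50.01, 79.5 and 63.5 CPM, 1.42-fold more in the netrin-1 libraries (log2 0.51, adjusted p = 0.724). The shore chr11:68385051-68387050 had 66.3, 68.8, 105.5 and 98.3 CPM (1.51-fold, log2 0.59, adjusted p = 0.543). The shore chr11:68386727-68388726 had 21.4, 24.4, 31.5 and 42.2 CPM (1.61-fold, log2 0.69, adjusted p = 0.704). The 3 features overlap or adjoin one another, and in each the groups did not overlap. Higher coverage without overlap was found in 10 of the 53 member features, beside 17.7% of all. Among them was the Rgmb island at chr17:15830544-15831266, at 26.4, 27.8, 46.7 and 30.9 CPM. Its fold of 1.43 was like that of the Ntn1 island, but netrin-1 1 stood well above the rest. Its unadjusted p in the edgeR test was 0.0763 and its adjusted p 0.858. The Ntn1 island at the listed start site (chr11:68399535-68400614) had 60.3, 50.2, 52.5 and 50.8 CPM, with overlapping groups. Calls from the transgene and from the endogenous gene are not separated in the tables, and the part of the transgene in these values was not tested.

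**Figure D4:**
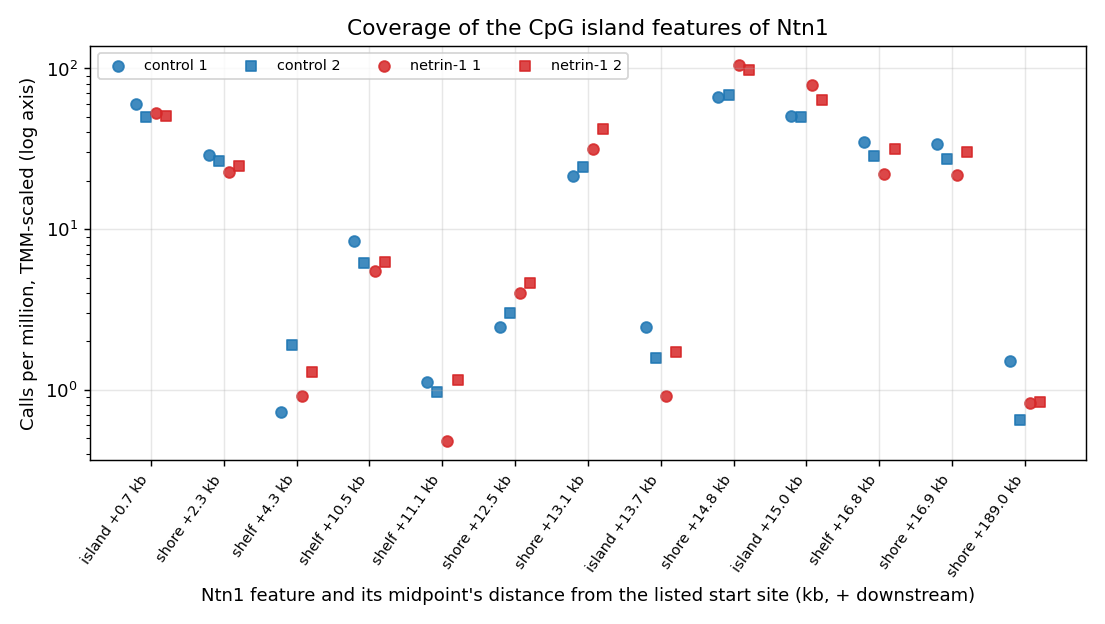
CPM after TMM scaling (vertical log axis) over each covered CpG island feature of Ntn1, named by class and distance of its midpoint from the listed start site in kb, 1 point per library. At +12.5, +13.1, +14.8 and +15.0 kb both netrin-1 libraries lie above both controls, none past the adjusted threshold.

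Receptors and partners of these ligands, 29 genes in all, were examined in the same way. Counted with them is Hfe2, which is itself a further RGM family gene. Of 24 tested bodies 0 were called and 3 were lower at an unadjusted p below 0.05, beside 11.9% of all tested gene features. The median difference over the 29 bodies was -1.58 points, beside -1.73 points over all bodies. The body of Dcc, the attractive netrin receptor, was at 36.7%, 39.3%, 31.7% and 27.7% (adjusted p = 0.184), and that of Unc5c, a repulsive receptor, at 29.2%, 37.8%, 25.7% and 25.1% (adjusted p = 0.242). Of 28 promoters with values 23 had a lower mean and 5 a higher one, with a median of -0.63 points, beside 56.2% lower and a median of -0.134 points over all promoters, and 2 were tested. The Dcc promoter was at 5.23%, 16.2%, 3.97% and 2.59% (adjusted p = 0.213), the highest value being control 2, and that of the BMP receptor Bmpr1b at 2.14%, 2.00%, 0.67% and 1.45% (adjusted p = 0.662).

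None of the partners' island features was called either. At an unadjusted p below 0.05, 10.5% of all tested island features were lower and 1.53% higher, as above. Of 6 tested islands 1 was lower and 1 higher at an unadjusted p below 0.05, both in Trio, at adjusted p of 0.313 and 0.387. The lower one was at 1.77%, 2.13%, 0.89% and 0.64%, and the higher at 7.68%, 19.5%, 26.3% and 20.0%, with control 1 far below the rest. Of 12 tested shores 2 were lower, in Trio (31.1%, 37.9%, 15.5% and 19.5%, adjusted p = 0.219) and in Draxin, whose product binds netrin-1 and DCC (2.70%, 3.35%, 0.94% and 1.15%, adjusted p = 0.307). Of 10 tested shelves 1 was lower, that of Unc5d, at 29.6%, 42.8%, 19.3% and 22.3% (adjusted p = 0.326). Next among the shelves by unadjusted p was that of Ptk2, the focal adhesion kinase gene, at 42.0%, 51.0%, 28.3% and 39.5% (adjusted p = 0.577).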

How the data were processed

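Per the labels' protocols, genomic DNA of 4 libraries was cut with MspI, size-selected on a gel, converted with bisulfite and sequenced as read pairs. The submitters' processing notes name FastQC and the builds mm10 and GRCm38; neither aligner, methylation caller nor conversion rate is given there or in the labels. Into 3 tables the authors deposited, per gene feature, CpG island feature and 100 kb window, whole-number counts of covered positions, total calls and methylated calls, and the methylation level as a fraction, which was printed here as a percent. Further sheets that repeat or excerpt these tables were not used. Island and window coordinates were shifted to count from 1, and gene coordinates are as deposited.

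Levels were compared with a quasi-binomial logistic test on methylated and total calls (R 4.3.3). The dispersion was moderated with limma 3.58.1 (trend on coverage, robust, floor of 1). Features needed at least 10 calls in every library, levels not identical in all, and an information (calls × level × (1 − level)) of at least 25 on average over the libraries. P-values were adjusted by Benjamini-Hochberg over each whole table, with a threshold of 0.05. Total calls were tested with edgeR 4.0.16 (quasi-likelihood, TMM, filterByExpr) and, as an alternative, DESeq2 1.42.0. The tests were tested on simulated data first. Medians over the members are descriptions, with no test. Intervals are at 95%, and upper limits for a level of 0 (3 calls of the total) cover counting error only, since reads carry no molecular identifiers.

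The groups and replicate numbers came from the titles. Alternatives changed the minimum of calls or information, the moderation, the test, the centring, the block and the libraries. Members, partner genes and stem cell genes were lists of names, chosen with earlier results of these data known. All 8 members are named. Among partners, those called and the 2 with the smallest unadjusted p per class were to be named. The body comparison took the 3 bodies nearest to Ntn1. Sequences are from RefSeq (GRCm38.p6).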

Additional observations from a re-analysis of the deposited data

How the results depend on the processing

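With the replicate number as a block, 1 member gene feature (the Ntng1 body, adjusted p = 0.0484) and 3 windows were called. Over all features the block gave 299 called gene features and 1306 called windows, against 1 and 528 without it. The labels do not say whether the numbers pair the libraries. Deviations of same-numbered libraries correlated at 0.0317 over gene features, -0.000352 over island features and 0.0277 over windows. Counting noise in single features lowers such correlations, so they cannot decide whether the libraries are paired. Leaving out 1 library gave 0 to 1 gene features and 0 to 2 windows called. With no information minimum 2 island features were called. The called window fell to 0 with no information minimum, the same without robust moderation, unmoderated dispersion, limma on points or M values, and centring (0 in each). For bodies the median difference was 0.0938 points when centred, and -3.21 to -0.741 points over the left-out libraries. For shores it was -1.61 points pooled, -0.0146 points when centred, and -1.3 to -0.658 points over the left-out libraries. Promoter, island and shelf medians moved by less than 1 SD (of the members' mean level between replicates, pooled over groups). For promoters and shelves that SD is wide, at 3.24 and 1.75 points in the controls and 1.21 and 4.07 with netrin-1. Staying within it there says little. The signs of these medians changed. Over the alternatives the promoter, island and shelf medians ran from -0.407 to 0.776, -0.412 to 0.297 and -1.22 to 1.12 points, each highest when centred.

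Over 32 single results, 361 of 393 alternatives kept direction and side of the threshold, 15 reversed, 8 gained a call and 9 lost one; no cause was tested. When centred, the log odds ratio turned to 0.00793 for the Ntng2 body, 0.0824 for the Ntng2 shore at 29195064 and 0.0515 for the Rgmb shelf at 15828842. Over the left-out libraries the log odds ratio ran from -0.222 to 0.000114 for the Ntn4 body, -0.136 to 0.0679 for that Ntng2 shore, -0.0107 to 0.266 and -0.0775 to 0.147 for the Ntng2 islands at 29227632 and 29251509, -0.371 to 0.119 for the Rgma shore at 73415382, and -0.0775 to 0.114 for that Rgmb shelf. For Ntn1 it ran from -0.646 to 0.109 (shore at 68382929), -0.645 to 0.113 (shelf at 68383051), -0.226 to 1.14 (island at 68384929) and -0.32 to 0.787 (shore at 68385051). No member was called for coverage in any alternative run. Among promoters, depth limits those of Ntn1 and Ntn5 most, at 34 calls or fewer per library.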
